A study of Homo sapiens with 6 samples.

Results

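Chemerin, the product of RARRES2, and its 3 receptors CMKLR1, GPR1 (also called CMKLR2) and CCRL2 were followed in human endometriotic epithelial 12Z cells, with and without added chemerin. The 4 genes were taken by name out of the 16279 genes of the count and FPKM tables (FPKM being fragments per kilobase of gene, scaled to library size), and all 4 passed the filter on low counts that left 13311 genes for testing. RNA was sequenced from untreated cells (Control, libraries NC-1 to NC-3) and from cells given 10 ng/mL recombinant human chemerin ending at Ser157, rhChem157S, for 48 h (libraries rhChemerin-1 to rhChemerin-3). Both groups are the same established cell line grown in DMEM/F-12 with serum and antibiotics, the 3 libraries of each group are labelled as biological replicates, and no other agent or genetic change is named. Total counts ran from 35430881 to 38341643 per library, so that 1 count was worth 0.0261 to 0.0282 CPM, the count scaled to library size.

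Chemerin is secreted as a weakly active precursor by adipocytes, hepatocytes and many epithelia, and becomes active when proteases trim its C-terminus. CMKLR1 and GPR1 are G protein-coupled receptors that signal on binding it, while CCRL2 binds and presents the ligand without signalling through G proteins. RARRES2 was named for its response to retinoids, and the chemerin axis is known in the endometrium and ovary as a link between adipose tissue and reproduction. The recombinant protein carries no mRNA, so the RARRES2 reads come from the cells' own transcripts.

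The labelled cell type was checked against marker genes. Among the keratins of simple epithelia, KRT8 at 820 ± 82.7 FPKM (SD, n = 3) and KRT18 at 608 ± 46.0 FPKM (SD, n = 3) were abundant in Control cells, while KRT7 was at 1.66 ± 0.361 FPKM (SD, n = 3). The epithelial adhesion genes CDH1 and EPCAM were low in the same cells, at 0.310 ± 0.0719 and 0.599 ± 0.210 FPKM (SD, n = 3). The fibroblast collagen gene COL1A1 reached 1042 ± 84.9 FPKM (SD, n = 3), and the summed level of the 8 stromal markers ran from 1711 to 2205 FPKM in the Control libraries and from 1183 to 2322 FPKM in the rhChem157S libraries. The oestrogen receptor gene ESR1 was at 0.0163 ± 0.0127 FPKM and the progesterone receptor gene PGR at 0.255 ± 0.0319 FPKM (SD, n = 3) in Control cells. Despite these low mRNA levels, the study detected the proteins of CDH1, ESR1 and PGR in this cell line by immunoblot. Of the cells in which CMKLR1 is best known, macrophages and other leukocytes, the defining marker PTPRC had at most 0.0535 FPKM in any library, and the adipocyte genes ADIPOQ and LEP were at or near 0. PLIN1, also of the adipocyte list, reached 0.815 FPKM in rhChemerin-2. Of the markers, DESeq2 called the mucin gene MUC1 lower (log2 fold change -0.57, adjusted p = 0.0404), the stromal gene MME higher (0.85, adjusted p = 5.19e-05) and the endothelial gene VWF lower (-1.97, adjusted p = 0.00489), besides CD14, given with the lists. Their part in the results was not tested. rhChemerin-3 stood apart from the other libraries. Its mean Pearson correlation with the other 5, taken over genes of log2 CPM, was 0.959, against 0.977 to 0.979 for each of the others. rhChemerin-1 averaged 0.979 with the other libraries but 0.972 within its own group, so it was more like the Control libraries than the treated ones.

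The ligand gene RARRES2 lies on chromosome 7 from 150338317 to 150341674 on the minus strand (GENCODE release 29, GRCh38). The bases just upstream of it are shown because RARRES2 had the largest change relative to its error among the 4 genes. Its name also refers to retinoid receptors, and 1 form of their DNA half-site is marked. The window chr7:150341675-150341879 holds the 205 bases before the outermost annotated start (RefSeq, GRCh38.p14, minus strand, written 5′ to 3′), with the half-site GGGTCA in capitals.
RARRES2: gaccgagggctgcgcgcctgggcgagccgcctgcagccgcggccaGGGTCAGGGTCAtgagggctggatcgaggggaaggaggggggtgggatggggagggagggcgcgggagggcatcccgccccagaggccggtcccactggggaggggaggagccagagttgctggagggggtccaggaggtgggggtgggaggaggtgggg
The half-site occurs 2 times in a row with no spacer, 160 and 154 bases before the start. On both strands, 9.88% of the 35116 windows of the same length in the RefSeq table hold GGGTCA, and 5 of them hold the repeat GGGTCAGGGTCA. The other form of the half-site that was searched, AGGTCA, has no match in the window and is present in 9.99% of all windows. The GC box GGGCGG has 1 match, on the opposite strand, and is present in 35.9% of windows. Neither TATAAA nor CCAAT was found in the window, and these occur in 7.75% and 28.2% of windows. The window is 75.1% G or C, above 89.9% of all windows, whose median is 57.6%. The motifs were chosen with the sequence and the expression values known, and a match is only a description of letters.

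RARRES2 was the most abundant of the 4 genes and was lower in rhChem157S-treated cells. Its FPKM was 28.9, 29.7 and 37.5 in NC-1 to NC-3 and 13.7, 9.86 and 13.1 in rhChemerin-1 to rhChemerin-3, from 775 to 1023 and from 271 to 397 counts. In such bulk RNA, fewer cells with the transcript and less transcript per cell cannot be told apart. Every treated library lay below every Control library, with a gap of 15.2 FPKM, against a range of 8.60 FPKM within the Control group and 3.81 FPKM within the treated group. The treated mean was 38.2% of the Control mean, and 81.0% of the genes in the tables had a lower mean FPKM over the 6 libraries. The log2 fold change was -1.26 with a 95% interval of -1.68 to -0.83, or a level 1.78- to 3.20-fold lower. Its adjusted p was 0.0692 with edgeR's quasi-likelihood test (Benjamini-Hochberg over the 13311 genes) and 2.43e-07 with DESeq2, the tool that the study used. The study itself reported RARRES2 as lower after treatment, and its qPCR of the gene went the same way. Only 0.240% of the tested genes had a smaller p in the edgeR test, and the exact permutation test of the FPKM gave p = 0.10, the smallest two-sided value that 3 libraries against 3 allow.

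GPR1, a receptor that signals on binding chemerin, went the other way. It lies on chromosome 2 from 206175316 to 206218047 on the minus strand. Its FPKM was 1.90, 1.95 and 2.28 in NC-1 to NC-3 and 3.53, 3.08 and 3.77 in rhChemerin-1 to rhChemerin-3, from 169 to 207 and from 281 to 355 counts. The lowest treated library was 0.795 FPKM above the highest Control library, a gap wider than the range of 0.387 FPKM within the Control group and 0.695 FPKM within the treated group. The mean was 2.04 ± 0.210 FPKM in Control cells and 3.46 ± 0.353 FPKM in treated cells (SD, n = 3). The log2 fold change was 0.90 with a 95% interval of 0.46 to 1.33, or 1.38- to 2.51-fold higher (edgeR, adjusted p = 0.0824; DESeq2, adjusted p = 8.19e-04). The replicate libraries of GPR1 were close together, with a coefficient of variation of 10.3% in Control cells and 10.2% in treated cells, against 14.8% and 16.9% for RARRES2. The fold of GPR1 was below the threshold of 2 that the study set for a differentially expressed gene, and the interval of the difference reaches past it.

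CMKLR1, the other signalling receptor, had few reads in any library, although the study detected its protein in 12Z cells by immunoblot. It lies on chromosome 12 from 108288044 to 108339341 on the minus strand. Its counts were 16, 25 and 12 in NC-1 to NC-3 and 6, 3 and 13 in rhChemerin-1 to rhChemerin-3, and its FPKM did not exceed 0.122 in any library. It passed the filter on low counts mainly through the Control libraries, since rhChemerin-1 and rhChemerin-2 had only 6 and 3 counts. The treated mean was lower, at 0.0350 ± 0.0245 FPKM against 0.0874 ± 0.0316 FPKM (SD, n = 3), but the groups overlapped by rhChemerin-3, which at 0.0622 FPKM was above the 0.0596 FPKM of NC-3. The log2 fold change was -1.15 with a 95% interval of -2.68 to 0.37 (edgeR, adjusted p = 0.322), so that levels from 6.42-fold lower to 1.29-fold higher are all within its error. With 1 library left out, the log2 fold change ran from -1.91 without rhChemerin-3 (edgeR, adjusted p = 0.148) to -0.79 without rhChemerin-2 (edgeR, adjusted p = 0.548).

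CCRL2, which binds chemerin without signalling, varied among replicates more than between the groups. It lies on chromosome 3 from 46407163 to 46412997 on the plus strand. Its counts were 6, 12 and 36 in NC-1 to NC-3 and 2, 11 and 27 in rhChemerin-1 to rhChemerin-3. NC-3 and rhChemerin-3 were the highest of their groups and NC-1 and rhChemerin-1 the lowest, and within a group the highest FPKM was 5.90 times the lowest in Control cells and 13.8 times the lowest in treated cells. The log2 fold change was -0.30 with a 95% interval of -2.54 to 1.93 (edgeR, adjusted p = 0.866). Its direction was not fixed by these libraries, since the log2 fold change was 0.69 without NC-3 and 0.21 without rhChemerin-1.

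**Figure D1:**
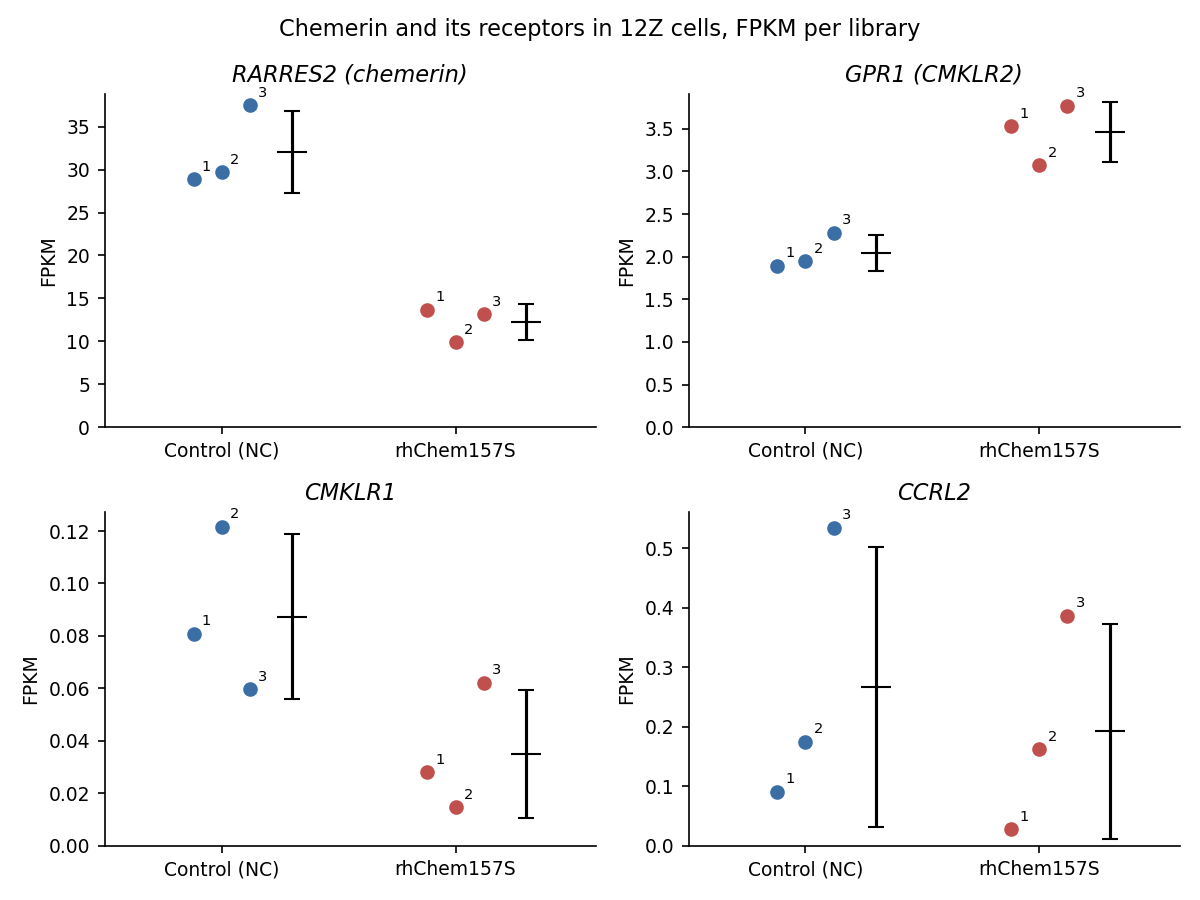
FPKM (vertical axes, each from 0) of chemerin and its receptors in 3 Control and 3 rhChem157S libraries. Points are libraries with their replicate number, and the bar at the right of each group is the mean with its SD. The groups are apart for RARRES2 and GPR1 and overlap for CMKLR1 and CCRL2.

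Of the 4 genes, 0 had an adjusted p under 0.05 with edgeR, where 0.0301% of all tested genes did. Without adjustment, RARRES2 was among the lower genes with p under 0.05 and GPR1 among the higher ones (edgeR), each a class that held 11.4% of the tested genes. With DESeq2, RARRES2 was 1 of the 5.3% of genes that were lower with an adjusted p under 0.05 and GPR1 1 of the 3.75% that were higher. RARRES2 was also among the 2.2% that were lower by more than 2-fold at that threshold. GPR1 was not among the 0.521% that were higher by more than 2-fold. A gap between the groups is common in these data. For FPKM, 25.1% of the tested genes were lower in every treated library than in every Control library and 7.36% higher, and after TMM scaling these shares were 16% and 16.5%. RARRES2 and GPR1 had such a gap on both scales.

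The direction of the RARRES2 and GPR1 differences held under every processing tried, but the call did not. The log2 fold change of RARRES2 ran from -1.39 to -1.12 over 13 alternatives and that of GPR1 from 0.55 to 0.98, the lowest on the log2(FPKM + 1) scale. The adjusted p of RARRES2 ranged from 2.43e-07 to 0.359 and that of GPR1 from 8.19e-04 to 0.371. For RARRES2 it was 0.0301 without rhChemerin-1 and 0.0258 without rhChemerin-3, the library that stood apart (edgeR). For GPR1 the corresponding values were 0.0548 and 0.0618 (edgeR).

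**Figure D2:**
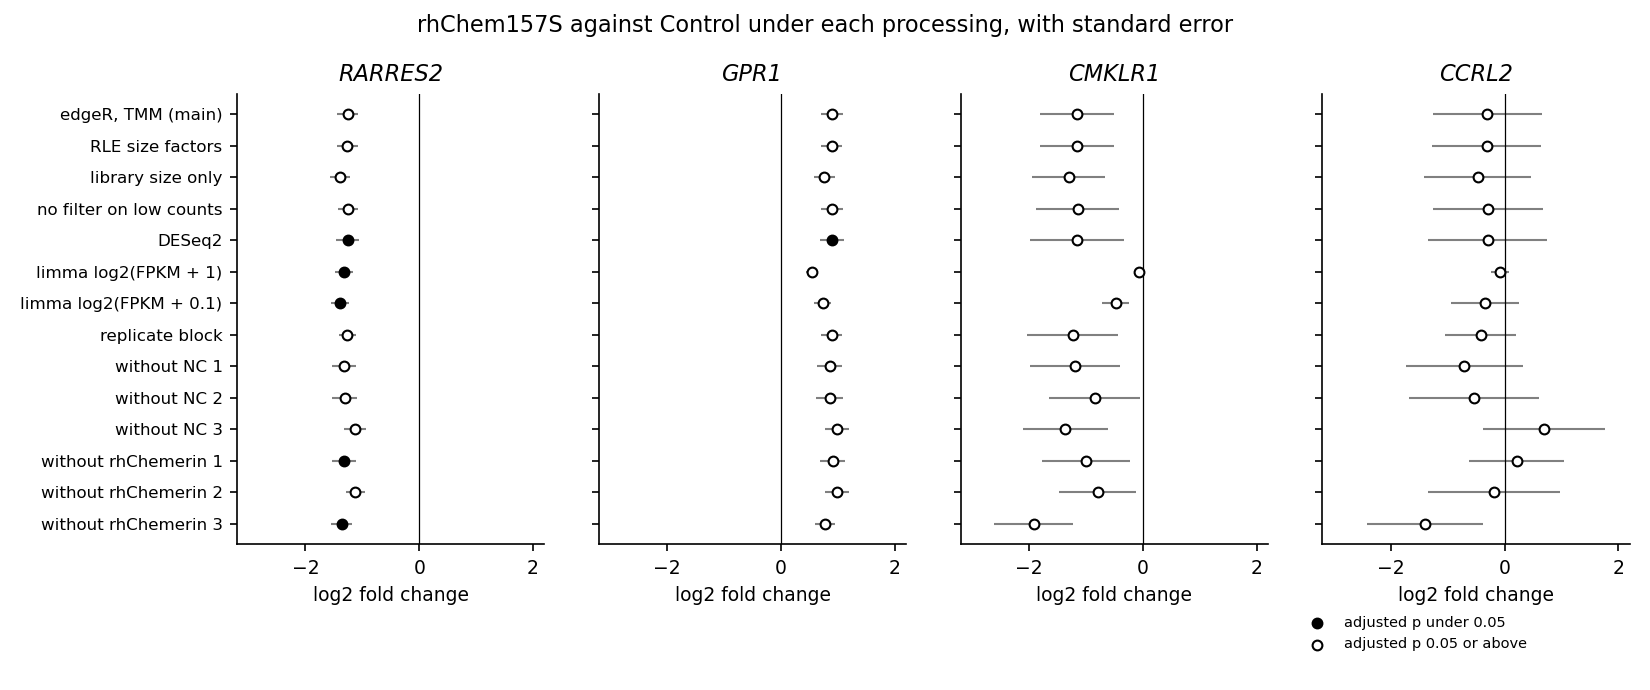
Log2 fold change of rhChem157S against Control (horizontal axis) under each processing (rows), with its standard error as a line. Filled points have an adjusted p under 0.05. RARRES2 stays below 0 and GPR1 above 0 in all rows, while CCRL2 lies on both sides of 0.

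Per length, the receptors were ordered GPR1, CCRL2 and CMKLR1 by mean FPKM. GPR1 was above the other receptors in every library. CCRL2 and CMKLR1 were not separated beyond their spread, and in rhChemerin-1 they were level, at 0.0279 and 0.0280 FPKM. GPR1 made up 91.7%, 86.8% and 79.3% of the summed FPKM of the 3 receptors in NC-1 to NC-3 and 98.4%, 94.6% and 89.4% in rhChemerin-1 to rhChemerin-3, shares that overlap between the groups. Of the 2 signalling receptors alone, GPR1 took 94.1% to 97.5% of the FPKM in Control cells and 98.4% to 99.5% in treated cells. The FPKM of GPR1 was 16.0 to 38.3 times that of CMKLR1 in the Control libraries and 60.7 to 208 times in the treated libraries, where the CMKLR1 term rests on 3 to 13 counts.

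The amount of ligand mRNA per GPR1 mRNA was lower in treated cells. RARRES2 FPKM was 15.2, 15.3 and 16.4 times that of GPR1 in NC-1 to NC-3 and 3.87, 3.21 and 3.48 times in rhChemerin-1 to rhChemerin-3. On the log2 scale with 0.1 FPKM added to both genes, the ratio was 3.90 ± 0.07 in Control cells and 1.78 ± 0.14 in treated cells (SD, n = 3), a difference of -2.12, or 4.35-fold. Its spread within a group was far below the difference, and the groups did not overlap (exact permutation test, two-sided p = 0.10, the smallest this design allows, with 3 ratios compared). RARRES2 was lower and GPR1 higher in every treated library, so this gap and its p follow from those differences and add no separate result. For CMKLR1 the added 0.1 FPKM is close to or above its own level in every library, and its ratio turned with it, from a difference of -0.91 (exact permutation test, p = 0.10) to 0.11 without a pseudocount (exact permutation test, p = 0.90). Without a pseudocount, RARRES2 FPKM was 358, 244 and 629 times that of CMKLR1 in NC-1 to NC-3 and 488, 667 and 211 times in rhChemerin-1 to rhChemerin-3, so that the groups overlapped and no difference was detectable. The ratio to CCRL2 differed by -1.04 (exact permutation test, p = 0.20) and by -0.64 without a pseudocount (exact permutation test, p = 0.70), with overlapping groups on both scales. The ratio to GPR1 differed by -2.16 without a pseudocount.

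**Figure D3:**
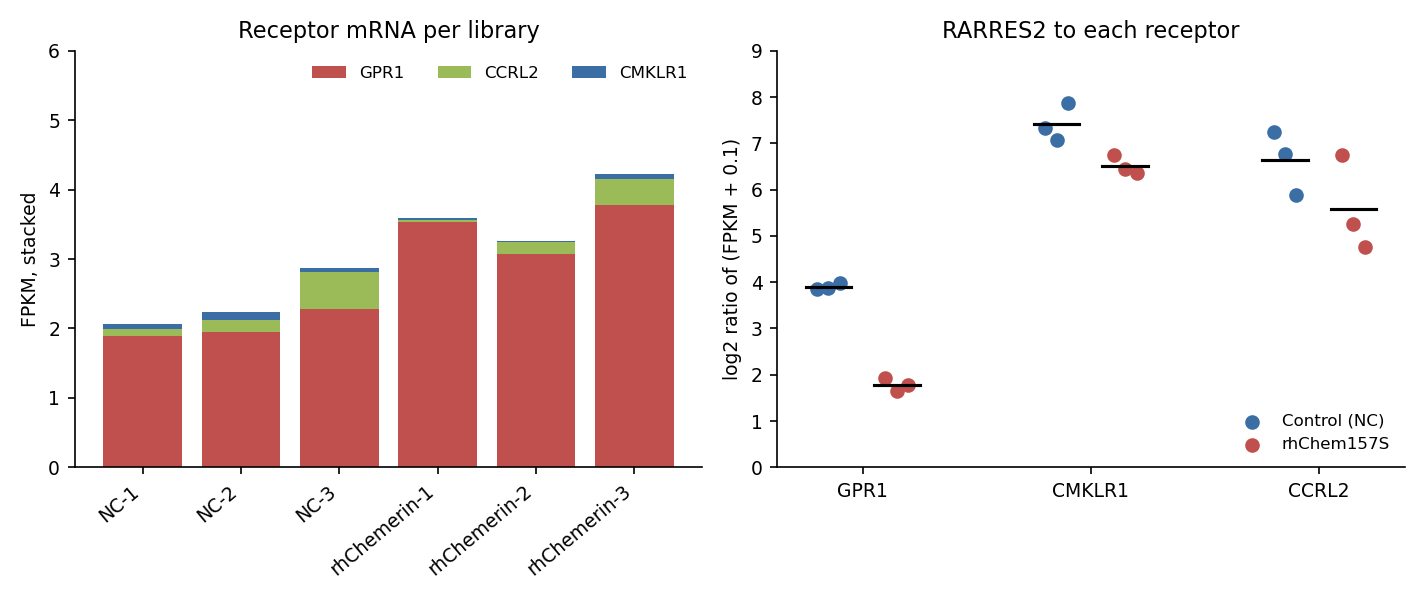
Left, FPKM of the 3 receptors stacked for each library. Right, log2 ratio of RARRES2 to each receptor with 0.1 FPKM added, where points are libraries and lines are group means. GPR1 fills most of every bar, and the mean log2 ratio of RARRES2 to GPR1 is 3.90 in Control and 1.78 in treated libraries. The gap between the groups for CMKLR1 is not there without the added 0.1 FPKM.

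The genomic neighbours of RARRES2 and GPR1 were looked at for shared movement. No gene with exon bases in common with any of the 4 genes is annotated in GENCODE. A non-coding gene on the other strand spans RARRES2, and the antisense gene GPR1-AS spans part of GPR1, in both cases with 0 shared exon bases, and neither is in the tables. LRRC61 ends 167 bases from RARRES2 and had 2.22 ± 0.143 FPKM in Control cells and 1.51 ± 0.559 FPKM in treated cells (SD, n = 3), with overlapping groups (log2 fold change -0.44, edgeR adjusted p = 0.342). REPIN1, 26515 bases away on the other side, had a log2 fold change of -0.05 (edgeR, adjusted p = 0.794). Next to GPR1, the translation elongation factor gene EEF1B2 had a log2 fold change of 0.57 (edgeR, adjusted p = 0.115; DESeq2, 0.0185) and ZDBF2 one of -0.25 (edgeR, adjusted p = 0.515). LTF, next to CCRL2, had at most 4 counts in any library. The neighbours of CMKLR1 were WSCD2, with at most 1 count, and FICD, at -0.26 (edgeR, adjusted p = 0.423).

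The genes whose course over the 6 libraries was most like that of RARRES2 were S100A4, SLC6A9, CLDN1, PNMA6A and ADM2. Likeness was the root mean square difference of log2 CPM relative to the Control mean, over 12311 genes with a mean CPM of at least 1, and it was 0.16, 0.17, 0.18, 0.19 and 0.20 for these genes against a median of 0.94. The likeness includes the difference between the groups, and so describes the same contrast. S100A4, a calcium-binding protein gene, had 6.28 FPKM in Control cells and 2.70 FPKM in treated cells, and CLDN1, a tight junction gene, had a log2 fold change of -1.33 and was the only one of the 5 with an adjusted p under 0.05 (edgeR, adjusted p = 0.0460). Lower CLDN1 was also reported by the study, from its RNA sequencing and by qPCR. Like RARRES2, 4 of the 5 were lowest in rhChemerin-2, the exception being ADM2, which was lowest in rhChemerin-3. The values relative to the Control mean in rhChemerin-1 to rhChemerin-3 were -1.15, -1.58 and -1.05 for RARRES2 and 0.85, 0.70 and 1.10 for GPR1. On this TMM-scaled measure rhChemerin-3, which stood apart over all genes, was the treated library closest to Control for RARRES2 and the farthest for GPR1. By FPKM, which has no TMM scaling, rhChemerin-1 was the closest for RARRES2, at 13.7 against 13.1 FPKM in rhChemerin-3.

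**Figure D4:**
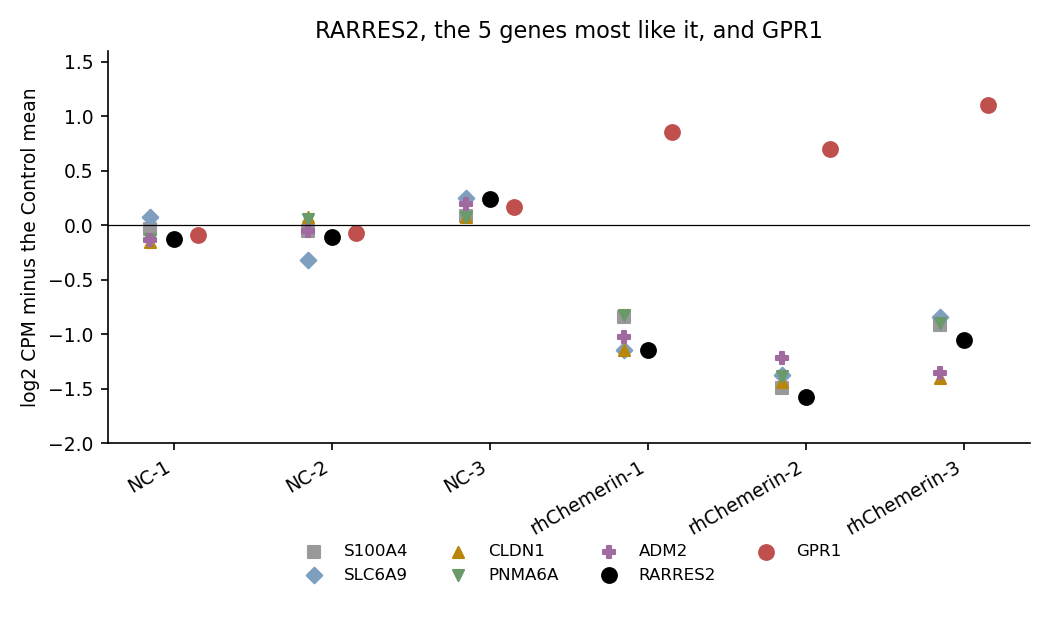
Log2 CPM minus the Control mean (vertical axis) in each library (horizontal axis) for RARRES2, the 5 genes most like it and GPR1. The 5 genes follow RARRES2 below 0 in the treated libraries, and GPR1 lies between 0.70 and 1.10 there.

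Genes that act on chemerin or its receptors were described in 9 lists, of 134 genes in all, of which 112 are in the tables and 84 were tested. None of them had an adjusted p under 0.05 with edgeR, and the median log2 fold change of all tested genes was 0.01. Gaps between the groups given below are by FPKM, where 25.1% of all tested genes were lower in every treated library and 7.36% higher. The enzymes that trim chemerin into its active form were in part too low to test, with 7 of 16 tested, 3 of them higher and 4 lower (median log2 fold change -0.35). The most abundant were the cathepsin CTSL, at 93.0 ± 14.9 FPKM in Control cells and 135 ± 44.9 FPKM in treated cells (SD, n = 3), and the plasminogen activators PLAT and PLAU. PLAT had 14.3, 18.1 and 43.1 FPKM in NC-1 to NC-3 and 18.1, 54.8 and 106 FPKM in rhChemerin-1 to rhChemerin-3, and the groups overlapped for CTSL, PLAT and PLAU. Of the proteases that inactivate chemerin, PRTN3 and ACE were both under 0.7 FPKM in every library.

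Of the inhibitors of these proteases, 3 of 7 tested genes were higher and 4 lower (median -0.59). SERPINE2 had a log2 fold change of 1.15 (edgeR, adjusted p = 0.158; DESeq2, 0.0202) and SERPINB2 one of 3.07 (edgeR, adjusted p = 0.164; DESeq2, 0.0848). SPINT1, a membrane-bound inhibitor of serine proteases, had -0.86 (edgeR, adjusted p = 0.135; DESeq2, 0.0253), with groups that did not overlap.

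The signal transduction genes downstream of the receptors were expressed, with 28 of 29 tested, 21 higher and 7 lower (median 0.10). Of the genes for inhibitory G protein alpha subunits, the class through which CMKLR1 couples, GNAI2 and GNAI3 were higher. GNAI1 (log2 fold change -0.15, edgeR adjusted p = 0.414) and GNAO1 (-1.12, edgeR adjusted p = 0.174) were lower in every treated library by FPKM, which has no TMM scaling. For GNAI1, NC-3 had 3.77 FPKM and rhChemerin-1 3.61 FPKM. Divided by their TMM factors, 1.05 and 0.998, these values change order, so its gap holds by FPKM only. A gap by FPKM was found downward for 6 and upward for 3 of the 28 genes, where 25.1% and 7.36% of all tested genes had one. The downward genes include GNA11 and GRK6, whose TMM-scaled log2 fold changes of 0.02 and 0.03 (edgeR) place them among the 21 higher genes. GNAI2 had 165 ± 8.14 FPKM in Control cells and 194 ± 15.9 FPKM in treated cells (SD, n = 3), a log2 fold change of 0.36 (edgeR, adjusted p = 0.102; DESeq2, 0.00448). GNAI3 had a log2 fold change of 0.42 (edgeR, adjusted p = 0.105; DESeq2, 0.0184), and the groups of GNAI2 and of GNAI3 did not overlap. RHOA, at 236 FPKM in Control cells, had 0.30 (edgeR, adjusted p = 0.146), and AKT1 0.08 (edgeR, adjusted p = 0.565). With library size only as scaling, the median of all genes moves to -0.12, so that differences of this size hold only relative to that shift.

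Among receptors related to CMKLR1 and GPR1, the formyl peptide receptor gene FPR1 differed most. FPR1 had 2.19, 1.53 and 2.42 FPKM in NC-1 to NC-3 and 0.669, 0.424 and 0.439 FPKM in rhChemerin-1 to rhChemerin-3, with no overlap between the groups. Its log2 fold change was -1.88 with a standard error of 0.32 (edgeR, adjusted p = 0.0707; DESeq2, 1.33e-05). In all, 5 of 18 such receptors were tested and the other 4 were also lower, with LTB4R and LTB4R2, receptors of leukotriene B4, at -0.09 and -0.05 (median of the 5, -0.09). In Control cells, FPR1 and GPR1 were therefore at a like level, about 2.05 and 2.04 FPKM.

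RARRES2 is a retinoid-responsive gene, and 13 of 16 retinoid receptors and response genes were tested, 4 higher and 9 lower (median -0.17). CYP26B1, which degrades retinoic acid, had -0.85 (edgeR, adjusted p = 0.135; DESeq2, 0.0266) with groups that did not overlap. RARRES1, named for the same response, had 30.8 ± 8.66 FPKM in Control cells and 22.1 ± 5.17 FPKM in treated cells (SD, n = 3), with overlapping groups, and DHRS3 and RARG had -0.17 and -0.18, also with overlap. Of the transcription factors known to act on RARRES2, 6 of 7 were tested, 2 higher and 4 lower (median -0.34). PPARG, the adipocyte nuclear receptor, was at 1.21 ± 0.176 FPKM in Control cells and 0.773 ± 0.124 FPKM in treated cells (SD, n = 3; edgeR, adjusted p = 0.202; DESeq2, 0.135). It was lower in every treated library by FPKM, as were 25.1% of all tested genes, and no other of the 6 tested factors had a gap. CEBPB, SREBF2 and SP1 were the most abundant and had 0.05, -0.52 and 0.11, with overlapping groups.

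Chemerin has the fold of the cystatins, and the detected members of that group, CSTB and CST3, had log2 fold changes of 0.22 and 0.01 (edgeR, adjusted p = 0.348 and 0.962). Of other adipokines and their receptors, 14 of 20 were tested, 7 higher and 7 lower (median 0.04). The adiponectin receptor gene ADIPOR1 was at 60.5 ± 2.84 and 52.6 ± 5.29 FPKM, and NAMPT at 37.2 ± 2.28 and 39.4 ± 5.29 FPKM, in Control and treated cells (SD, n = 3). CAP1, which encodes a receptor described for resistin as well as an actin regulator, had 0.55 (edgeR, adjusted p = 0.141; DESeq2, 0.0401). CD14, a gene of the immune marker list, was lower in every treated library, at 43.2 ± 7.51 and 14.4 ± 7.32 FPKM (SD, n = 3), and made up nearly all of that list's summed level, which ran from 37.4 to 52.0 FPKM in Control and from 6.95 to 21.5 FPKM in treated libraries. The list's other members were under 0.5 FPKM in every library, PTPRC among them.

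**Figure D5:**
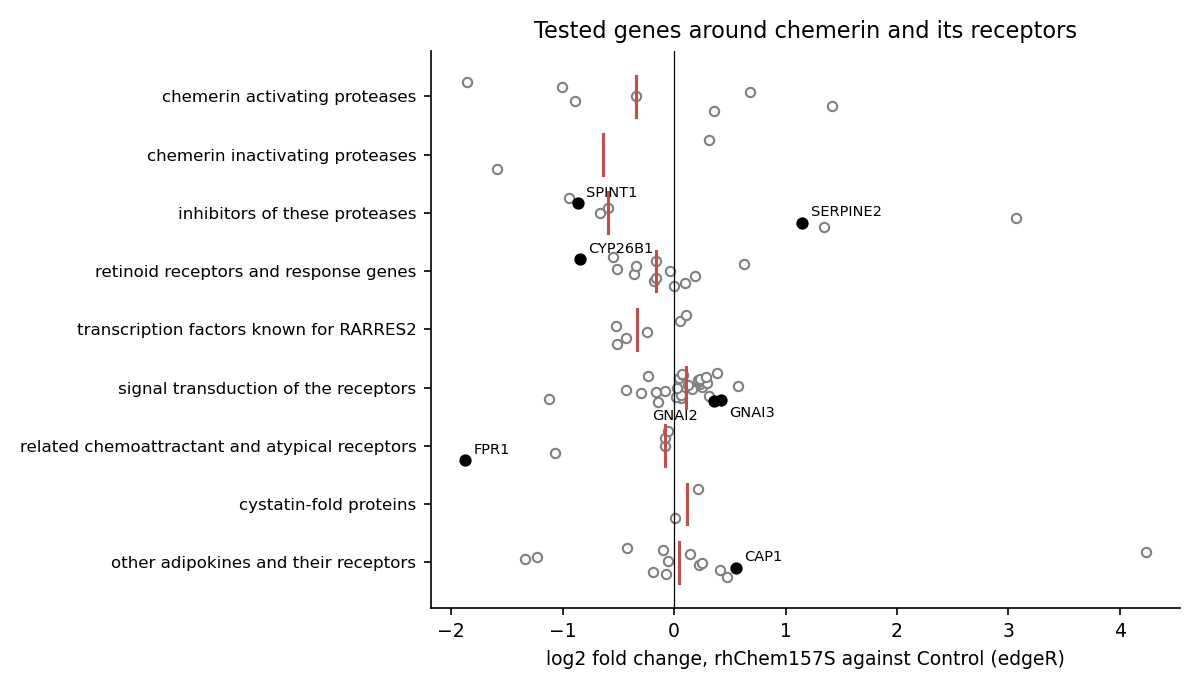
Log2 fold change of rhChem157S against Control (horizontal axis) for each tested gene of 9 lists (rows). Red lines are list medians, and filled, named points have an adjusted p under 0.05 with DESeq2, among them FPR1 at -1.88 and SERPINE2 at 1.15.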

How the data were processed

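Per the study's methods, reads were cleaned with fastp, mapped to GRCh38.p13 (HISAT2) and summed over genes by HTSeq-count. The strand setting and annotation release are not given in the sources used here. The authors deposited read counts without normalisation, and FPKM of the same 16279 genes. In all 89195 values above 0, the deposited FPKM equalled the count over a fixed gene length and the library total within 1%.

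Counts were tested in R 4.3.3 with edgeR 4.0.16 (TMM, filter on low counts by group, quasi-likelihood test, Benjamini-Hochberg over 13311 genes). The standard error was the log2 fold change over the root of F. The alternatives were DESeq2 1.42.0, RLE or library size scaling, no filter, a replicate block, leaving out each library, and limma 3.58.1 after adding 1 or 0.1 to the FPKM before taking log2. The tests were tried on simulated data. Coordinates come from GENCODE release 29 and the sequence from RefSeq, GRCh38.p14.

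The 4 genes and the lists were chosen with earlier results of these data known. In each list the text names genes with an adjusted p under 0.05 by edgeR or DESeq2 and the 3 detected genes (at least 10 counts in all) of highest mean FPKM. It also names the 5 genes most like RARRES2 and the neighbours of the 4 genes. Some genes that these rules would name are not reported here. PPARG, GNAI1, GNAO1, the marker genes described and the motifs searched were chosen after their values were seen. P-values measure the spread between 3 replicates of 1 line.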

Additional observations from a re-analysis of the deposited data

How the results depend on the processing

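The differences of RARRES2, GPR1 and CMKLR1 kept their direction under all 13 alternatives, and CCRL2 under 11. RARRES2 passed an adjusted p of 0.05 with DESeq2 (-1.26), limma on log2(FPKM + 1) (-1.32) and log2(FPKM + 0.1) (-1.39), and GPR1 with DESeq2 (0.89). With each library left out, the log2 fold change of RARRES2 ran from -1.36 to -1.12, passing without rhChemerin-1 (-1.31) and rhChemerin-3 (-1.36), that of GPR1 from 0.78 to 0.98, that of CMKLR1 from -1.91 to -0.79 and that of CCRL2 from -1.40 to 0.69, reversed without NC-3 (0.69) and rhChemerin-1 (0.21). On log2(FPKM + 1) the difference of CMKLR1 was -0.07, since the pseudocount exceeds its level. The number of genes with an adjusted p under 0.05, 4 in the edgeR test, was 17 with no filter, 1302 with DESeq2, 179 and 23 with limma at pseudocounts of 1 and 0.1, and 0 to 844 with a library left out. It was 844 without rhChemerin-1, 415 without rhChemerin-3 and 0 without each of the other 4, where 1666 to 2190 genes had p under 0.05 without adjustment (edgeR). The cause was not tested.

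The RARRES2 to GPR1 ratio differed by -1.88 with 1 FPKM added and by -2.19 to -2.05 with a library left out. The ratio to CMKLR1 differed by -1.09 to -0.68 with a library left out and by -1.25 with 1 FPKM added, all with a pseudocount near or above the level of CMKLR1, and reversed to 0.11 with no pseudocount, an alternative chosen after seeing the data. The ratio to CCRL2 ran from -1.63 to -0.63 with a library left out.

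With the replicate number as a block, 1 gene had an adjusted p under 0.05, RARRES2 had -1.26 (edgeR, adjusted p = 0.0579) and GPR1 0.89 (adjusted p = 0.0813). Deviations from the group means of same-numbered libraries correlated at 0.24, 0.00 and 0.25 across genes. Between libraries of different numbers the values ran from -0.31 to 0.11. The labels do not say that equal numbers are pairs, and these values cannot settle it. The main test did not treat them as pairs. For CMKLR1 and CCRL2, counts of 2 to 36 per library limit what can be detected.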
